A study of Sus scrofa with 6 samples.

Results

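The microRNA genes examined here were the rows of the deposited gene table annotated as microRNA whose mean over the 6 libraries was at least 1 FPKM. FPKM is the number of fragments scaled to the length of the gene and to the depth of the library. By this rule 24 of 370 microRNA rows were kept, out of 30477 genes in the table, and 22 of the 24 carried a gene symbol. The genes were thus chosen by their mean FPKM over both diets, and that level is a description. Of the 24 genes, 17 reached a mean of 1 FPKM in both diets, 6 reached it in the chow-fed pigs only, and 1 in the pigs fed the test diet only. The 6 were ssc-mir-365-2, MIR140, ssc-mir-2411, ssc-mir-218b, ssc-mir-10388 and ssc-mir-221, and the 1 was ENSSSCG00000033576. Just inside the limit lay ssc-mir-10388 at a mean of 1.04 FPKM, ENSSSCG00000033576 at 1.01 FPKM and ssc-mir-221 at 1.004 FPKM. Just outside lay ENSSSCG00000046572 at 0.978 FPKM, ssc-mir-1249-1 at 0.888 FPKM and ssc-mir-9828-1 at 0.826 FPKM.

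RNA came from the abdominal aorta of male Wuzhishan pigs, a Chinese miniature breed used as a model of atherosclerosis. For 6 months 3 pigs received normal chow (NC) and 3 pigs received a diet high in fat, cholesterol and fructose (HFCF), with 1 library per pig. The pigs carried no genetic change or other treatment. The labels give their age as 3 to 4 months, whereas the study's methods give an older age at the start. Values below are listed in the order of pigs 1, 2 and 3 of each diet.

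A microRNA is cut from a long primary transcript. In the nucleus DROSHA and DGCR8 release a short hairpin, XPO5 carries it to the cytoplasm, and DICER1 trims it to the mature strand that an Argonaute protein loads to silence messenger RNAs. Many hairpins lie inside introns of protein-coding genes, and others lie beside each other in a shared primary transcript. In the arterial wall miR-143 and miR-145 are the classical smooth muscle microRNAs, driven by serum response factor and myocardin and linked to the contractile state. Cells of the myeloid line are known instead for miR-223, miR-142, miR-155 and miR-146a.

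The libraries were made with a messenger RNA kit, so mature microRNAs were not measured as such. A value of a microRNA row counts fragments of longer RNA that overlap a hairpin of 70 to 110 bases, the span of lengths among the 18 genes found in the RefSeq table. Such short genes turn few fragments into a large FPKM, and levels of different hairpins are therefore not compared as amounts of RNA. Depth was not given, but some values recurred in different small RNA genes of a library. The recurring value with the most rows at 1 to 4 times its size was taken as the worth of 1 fragment spanning the gene. It was 0.149 to 0.212 FPKM in the 6 libraries. Such rows numbered 30, 40 and 32 in NC but only 14, 15 and 9 in HFCF, so the unit is less sure in HFCF. It was not checked against read counts. A level of 1 FPKM then stood for 4.72 to 6.71 such fragments. A value can fall below this unit where a fragment covers a hairpin in part.

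The tissue labels were checked against cell type markers, where 22.8% of all tested genes rose and 6.16% fell. By limma 6 of 8 contractile smooth muscle markers fell in HFCF and 0 rose (6 and 0 also at an unadjusted p under 0.05), and their summed level was 15914 to 22729 FPKM in NC and 7997 to 12892 FPKM in HFCF. All 8 macrophage markers rose, and their summed level was 34.9 to 38.2 FPKM in NC and 424 to 1014 FPKM in HFCF. Of 4 endothelial markers 0 were called by limma and 1 was higher at an unadjusted p under 0.05, and 1 of 4 for fibroblasts rose. The adipocyte genes ranged widely, with ADIPOQ at 39.1, 59.9 and 1.22 FPKM in NC and 4.08, 0.301 and 4.04 FPKM in HFCF. In a whole vessel wall, fewer smooth muscle cells and less RNA per smooth muscle cell cannot be told apart, and this holds for each result below.

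HFCF pig 1 stood apart from the other HFCF pigs. It had the highest macrophage sum, and its HBB, a red blood cell gene, was at 2846 FPKM against 21.3 to 175 FPKM in the other 5 libraries. The same pig held the lowest value of 12 of the 24 microRNA genes and was listed at 0 for 5. Fewer microRNA rows were above 0 in HFCF, 68 to 74 of 370 against 107 to 123 in NC. This was not particular to microRNAs. With small nucleolar and small nuclear RNA rows added, 336 to 384 rows were above 0 in HFCF against 445 to 468 in NC. The share of all genes listed at 0 was 39.9% to 40.6% in NC and 41.4% to 43.9% in HFCF. The part of these differences in the results below was not tested.

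In the comparison of diets 7 of the 23 microRNA genes other than ssc-mir-143 were lower in HFCF, 1 was higher and 15 were not called. Of the 16 that reached 1 FPKM in both diets 4 were lower, 1 was higher and 11 were not called. The other 3 lower genes, ssc-mir-365-2, MIR140 and ssc-mir-218b, had reached the limit in NC alone and so were bound to have the lower mean in HFCF. The counts are therefore a description of the genes kept. The test was limma on log2(FPKM + 0.1), with a call at an adjusted p under 0.05 over 15384 tested genes. Among all tested genes 6.16% were called lower and 22.8% were called higher. The median log2 difference between HFCF and NC was -1.91 over the 16 genes and 0.32 over all tested genes. It was below 0 in 10 of the 16, against 34.3% of all tested genes. In 7 of the 16 every HFCF pig lay below every NC pig, against 12.1% of all tested genes, and in 1 every HFCF pig lay above, against 36.1%. The thresholds of the study were a ratio of means above 2 or below 0.5 with an unadjusted p under 0.05. The p used here was that of limma, since the study does not name the test of its sequencing data. By these, 13 of all 24 were lower and 2 were higher, against 4.82% and 20.7% of all tested genes. Among the 13 were ssc-mir-143 and the 3 genes named above that had reached the limit in NC alone. This count is therefore a description as well. An exact permutation of 3 pigs against 3 has 0.1 as its smallest two-sided p, so the calls rest on the spread that limma shares across genes.

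The number of calls depended on single libraries. Of the 23 genes the count called lower was 2 without NC pig 1, 2 without NC pig 2 and 4 without NC pig 3. It was 7 without HFCF pig 1, 5 without HFCF pig 2 and 8 without HFCF pig 3. The 1 higher gene was lost without NC pig 1, NC pig 3 or HFCF pig 2, and without HFCF pig 1 the higher call was that of another gene.

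**Figure D1:**
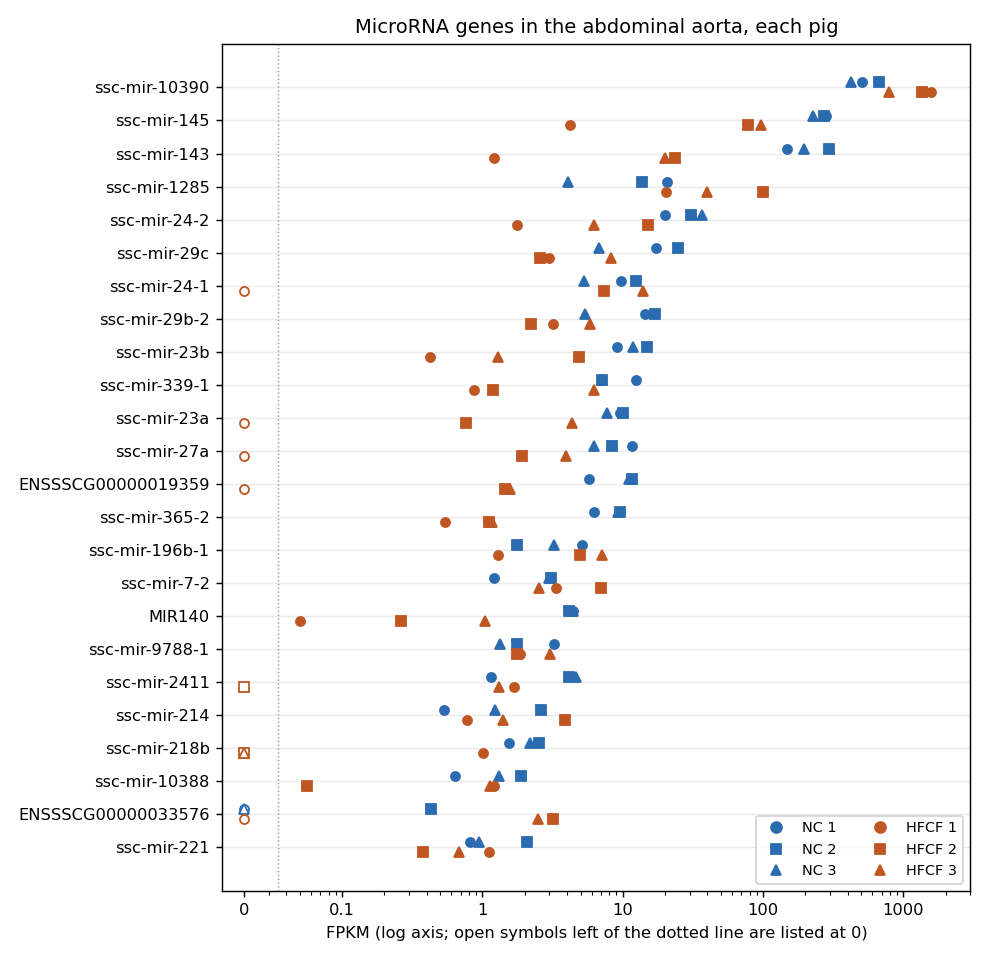
FPKM on a log axis of the 24 microRNA genes in each of the 3 NC pigs (blue) and 3 HFCF pigs (orange), ordered by mean, with open symbols for values listed at 0. For ssc-mir-143 and ssc-mir-145 all HFCF points lie left of all NC points, and HFCF pig 1 lies far left of the other pigs.

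Among smooth muscle microRNA genes, the levels of the miR-143 and miR-145 pair were far lower in HFCF. Both hairpins lie within 10 kb of each other, inside the span of IL17B in the RefSeq annotation. The gene ssc-mir-143 was at 147, 295 and 194 FPKM in the NC pigs and at 1.22, 23.5 and 19.9 FPKM in the HFCF pigs. No HFCF pig came near the lowest NC pig, and the highest HFCF value belonged to pig 2. This gene was chosen for its difference between diets, so its values are a description and no p is given. On the log2 scale HFCF minus NC was -4.58, and it was -3.23 without HFCF pig 1.

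The gene ssc-mir-145 was at 282, 273 and 228 FPKM in NC and at 4.19, 77.4 and 96.6 FPKM in HFCF. The NC pigs lay close together, whereas HFCF pig 1 lay far below the other HFCF pigs. The log2 difference of -3.03 ± 1.095 (SE, n = 3 per diet) was not called, with a limma adjusted p of 0.077. Without HFCF pig 1 the difference was smaller, -1.59, but it passed with an adjusted p of 0.0051. Over all alternatives the adjusted p ranged from 0.0051 to 0.192.

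Summed over both hairpins, the HFCF pigs held 1.14%, 21.3% and 24.6% of the NC mean. The ratio of ssc-mir-143 to ssc-mir-145 was 0.52, 1.08 and 0.85 in NC and 0.29, 0.30 and 0.21 in HFCF. In each HFCF pig the miR-143 hairpin was therefore lower relative to the miR-145 hairpin than in any NC pig. The gene around them, IL17B, which encodes a cytokine, was at 16.8, 17.7 and 44.0 FPKM in NC and 15.8, 16.0 and 23.3 FPKM in HFCF. Its log2 difference of -0.38 ± 0.38 was not called (limma adjusted p = 0.49). On the same percent scale ACTA2, smooth muscle actin, was at 45.3%, 44.1% and 62.6% of its NC mean in the HFCF pigs. Other smooth muscle markers differed in depth of fall. MYH11 was at 40.0%, 44.9% and 58.9%, and MYOCD, which encodes myocardin, was at 9.57%, 22.7% and 12.4%.

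The miR-23, miR-24 and miR-27 hairpins form a pair of groups that arose by duplication, and hairpins of both were measured. For miR-27b, which lies beside ssc-mir-23b and ssc-mir-24-2, no row was matched. In the group on the C10H9orf3 gene, also named AOPEP, ssc-mir-23b fell from 9.09, 15.0 and 11.8 FPKM to 0.423, 4.89 and 1.29 FPKM. This was a log2 difference of -2.94 ± 0.74 (limma adjusted p = 0.026), with no overlap between diets. Its call was lost without NC pig 1, 2 or 3 or HFCF pig 3, at adjusted p of 0.074, 0.083, 0.068 and 0.065. Beside it ssc-mir-24-2 fell from 19.8, 30.6 and 36.7 FPKM to 1.77, 15.2 and 6.27 FPKM, again with no overlap. Its difference was -2.32 ± 0.70 on the log2 scale (limma adjusted p = 0.046), and 7 of 15 alternatives kept the call. It was lost without any NC pig (0.096, 0.118 and 0.123 in the order of pigs), without HFCF pig 1 (0.058) and without HFCF pig 3 (0.087). Of AOPEP itself, which encodes an aminopeptidase, the levels were 11.2, 9.83 and 11.97 FPKM in NC and 4.54, 17.2 and 17.8 FPKM in HFCF. The HFCF pigs lay on both sides of the NC pigs, and the log2 difference was 0.03 ± 0.50 (limma adjusted p = 0.97). Without HFCF pig 1 AOPEP was called higher, at 0.67 (limma adjusted p = 0.029), and its sign flipped under the scaling alternatives.

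In the group beside ZSWIM4 no hairpin was called. Levels of ssc-mir-23a were 9.49, 10.05 and 7.75 FPKM in NC and 0, 0.770 and 4.38 FPKM in HFCF. Levels of ssc-mir-27a, a microRNA known for its part in fat cell formation, were 11.7, 8.41 and 6.22 FPKM in NC and 0, 1.92 and 3.92 FPKM in HFCF. For both, all HFCF pigs lay below all NC pigs, and HFCF pig 1 was listed at 0. Their log2 differences were -3.65 ± 1.21 and -3.20 ± 1.26, with limma adjusted p of 0.060 and 0.097. Without HFCF pig 3 both were called, ssc-mir-23a at -4.95 (0.015) and ssc-mir-27a at -4.26 (0.049). Without HFCF pig 1 ssc-mir-27a was called at -1.59 (0.040). The third hairpin, ssc-mir-24-1, was at 9.64, 12.5 and 5.33 FPKM in NC and 0, 7.38 and 13.9 FPKM in HFCF. Here the diets overlapped, with HFCF pig 1 the lowest and HFCF pig 3 the highest of the 6. The log2 difference of -2.00 ± 1.71 (limma adjusted p = 0.41) turned to 0.23 without HFCF pig 1. ZSWIM4, a zinc finger gene, fell from 9.39, 8.74 and 13.3 FPKM to 3.64, 4.48 and 2.67 FPKM, a log2 difference of -1.52 ± 0.25 (limma adjusted p = 0.0067) that all 15 alternatives kept.

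Members of the miR-29 family silence collagen and elastin messages. Both hairpins of the locus near CD46 had the same order of pigs within each diet. Levels of ssc-mir-29b-2 were 14.4, 17.0 and 5.38 FPKM in NC and 3.17, 2.204 and 5.802 FPKM in HFCF. The log2 difference of -1.64 ± 0.51 was called lower (limma adjusted p = 0.048), although HFCF pig 3 lay above NC pig 3. Levels of ssc-mir-29c were 17.3, 24.6 and 6.82 FPKM in NC and 2.98, 2.56 and 8.24 FPKM in HFCF, with the same overlap. Its log2 difference of -1.81 ± 0.58 missed the threshold (limma adjusted p = 0.055). Leaving out NC pig 3 or HFCF pig 3 brought ssc-mir-29c to an adjusted p of 0.029 in each case. The call of ssc-mir-29b-2 was lost without NC pig 1 (0.157), NC pig 2 (0.143), HFCF pig 1 (0.120) or HFCF pig 2 (0.132). The ratio of ssc-mir-29b-2 to ssc-mir-29c was 0.83, 0.69 and 0.79 in NC and 1.06, 0.86 and 0.70 in HFCF, and here the diets overlapped.

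**Figure D2:**
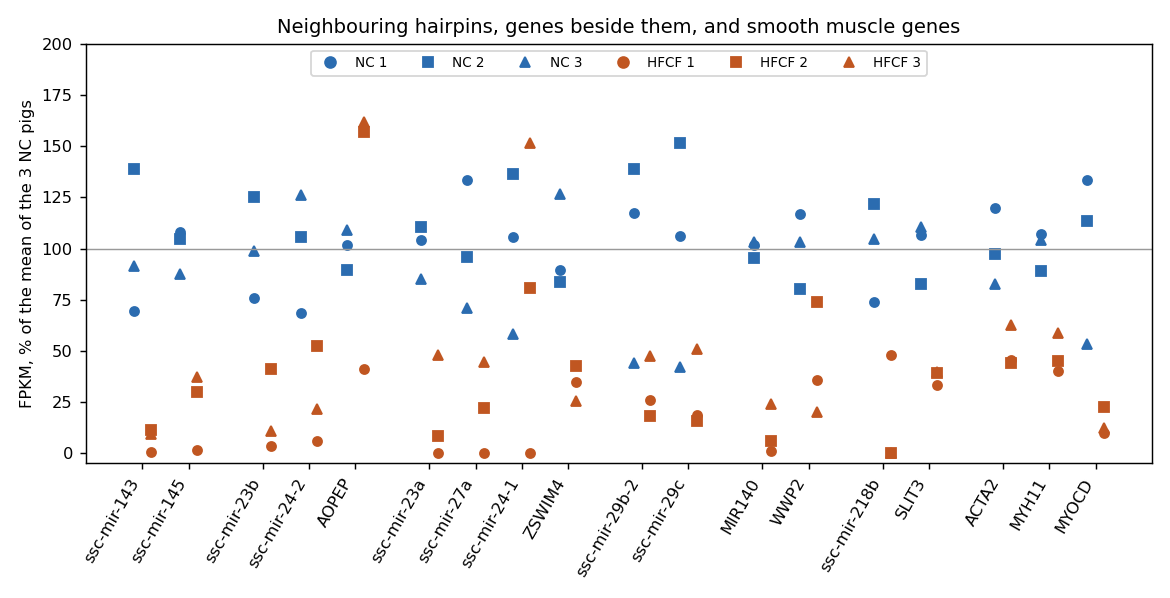
FPKM as percent of the mean of the 3 NC pigs for neighbouring hairpins, the genes beside or around them, and the smooth muscle genes ACTA2, MYH11 and MYOCD, with 1 point per pig. In the HFCF pigs MIR140 lies at or below 23.97% and WWP2 between 19.8% and 73.8%, whereas AOPEP lies on both sides of 100%.

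Of the other smooth muscle microRNA genes above the limit, ssc-mir-221, which reached it in NC only, and ssc-mir-214 were not called. Levels of ssc-mir-221, which represses cell cycle inhibitors, were 0.816, 2.08 and 0.949 FPKM in NC and 1.12, 0.379 and 0.680 FPKM in HFCF. Levels of ssc-mir-214, which lies within DNM3, were 0.532, 2.61 and 1.23 FPKM in NC and 0.777, 3.88 and 1.40 FPKM in HFCF. In both genes the diets overlapped, and pig 2 was the highest NC pig. The log2 differences were -0.74 ± 0.47 (limma adjusted p = 0.28) and 0.40 ± 0.69 (0.69).

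The whole smooth muscle list held 25 microRNAs, of which 24 had a row and 30 rows were found. Besides ssc-mir-143, 14 of these rows could be tested, of which 3 were lower, 0 were higher and 11 were not called, with a median log2 difference of -1.41. Among all tested genes 6.16% were lower and 22.8% higher. At an unadjusted p under 0.05 limma put 5 lower and 0 higher. The rows called lower were ssc-mir-23b, ssc-mir-24-2 and ssc-mir-29b-2. The summed level of the 30 rows was 505, 676 and 492 FPKM in NC and 17.1, 141 and 155 FPKM in HFCF. Of this sum the miR-143 and miR-145 pair held 429, 568 and 423 FPKM in NC and 5.41, 101 and 117 FPKM in HFCF. The sum thus largely repeats the pair described above. Of the rows, 9 were above the limit of 1 FPKM and 5 were listed at 0 in all 6 libraries.

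Below the limit, rows of the smooth muscle list held few fragments. The muscle hairpin ssc-mir-1 was at 0.964, 0.461 and 0 FPKM in NC and listed at 0 in every HFCF pig. MIR133A1 was at 0.204, 0.374 and 0.445 FPKM in NC and 0.389, 0.236 and 0.318 FPKM in HFCF. Neither was called, at limma adjusted p of 0.12 and 0.91. The other hairpins of these families, ssc-mir-133a-1, ssc-mir-133b and MIR1-2, were listed at 0 throughout, as were ssc-mir-100 and ssc-mir-490-1. Levels of ssc-mir-26a were 0.928, 1.58 and 0 FPKM in NC and 0.242, 0.331 and 0 FPKM in HFCF. Levels of ssc-mir-199a-2 were 0.204, 0.780 and 0.254 FPKM in NC and 0.478, 2.78 and 0.449 FPKM in HFCF. Both overlapped between diets and were not called (limma adjusted p = 0.45 and 0.30). A row of the same family, MIR199A2, was above 0 in NC pig 1 (0.192 FPKM) and HFCF pig 1 (0.102 FPKM). The partner of ssc-mir-221, ssc-mir-222, was at 0, 0.187 and 0.0615 FPKM in NC and at 0 in HFCF.

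The remaining rows of the list held at most the worth of 3 fragments in a library. MIR22 was at 0.0904, 0.104 and 0.0642 FPKM in NC and 0.113, 0.0976 and 0.115 FPKM in HFCF. The hairpin ssc-mir-204 was at 0.0880, 0.175 and 0.0697 FPKM in NC and at 0, 0.0114 and 0 FPKM in HFCF. The miR-15 family rows ssc-mir-195 and ssc-mir-497 were above 0 in NC only, at 0.222 and 0.160 FPKM in pigs 1 and 3 and at 0.612 FPKM in pig 1. For ssc-mir-204 every NC pig lay above every HFCF pig, but its mean was too low for it to be tested. The row ssc-mir-497 was not called (limma adjusted p = 0.41). A single NC library was above 0 for ssc-mir-28 (0.187 FPKM in pig 2), ssc-mir-29a (0.172 FPKM in pig 2), ssc-mir-29b-1 (0.298 FPKM in pig 3) and ssc-mir-125b-1 (0.132 FPKM in pig 3). A value of 0.0117 FPKM in NC pig 3 and of 0.0119 FPKM in HFCF pig 1 was all that ssc-mir-125b-2 held.

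No myeloid microRNA gene reached the limit of 1 FPKM. Of 17 listed microRNAs 11 had a row, 2 rows could be tested, 1 was higher in HFCF, against 22.8% of all tested genes, and 3 were listed at 0 in all libraries. The higher row was MIR142 (ENSSSCG00000019138), a microRNA of blood-forming cells. It was at 0.486, 0 and 0 FPKM in NC and 1.02, 0.715 and 2.36 FPKM in HFCF, so that every HFCF pig lay above every NC pig. The log2 difference was 2.86 ± 0.78 (limma adjusted p = 0.034), and 5 of 14 alternatives kept the call, with adjusted p from 0.017 to 0.103. It was lost without NC pig 2 (0.103), NC pig 3 (0.095) or HFCF pig 1 (0.075), 2 (0.055) or 3 (0.091). At these levels each value rests on few fragments.

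The other myeloid rows held few fragments or none. The granulocyte and macrophage hairpin ssc-mir-223 was above 0 only in HFCF pig 2, at 0.207 FPKM. The inflammatory hairpin ssc-mir-155 was at 0.109, 0.0208 and 0.0497 FPKM in NC and 0, 0.121 and 0.109 FPKM in HFCF. Levels of ssc-mir-21, listed for both smooth muscle and myeloid cells, were 0.143, 0.133 and 0.0866 FPKM in NC and 0.142, 0.0929 and 0.129 FPKM in HFCF. Its log2 difference was 0.00 ± 0.36 with a limma adjusted p of 0.99. VMP1, the gene beside miR-21 in mammalian genomes, rose by a log2 difference of 0.92 ± 0.24 (limma adjusted p = 0.029), and 7 of 15 alternatives kept that call. The rows ssc-mir-146a, ssc-mir-424 and ssc-mir-342 were listed at 0 throughout. The lymphocyte hairpin ssc-mir-150-1 was at 0, 0.374 and 0.184 FPKM in NC and at 0 in HFCF. MIR212 (0.210 FPKM) and ssc-mir-33b (0.204 FPKM) were above 0 in NC pig 1 alone, and ssc-mir-503 was at 0.0243 FPKM in NC pig 1 and 0.0149 FPKM in HFCF pig 3. The summed level of the 11 rows was 1.18, 0.528 and 0.320 FPKM in NC and 1.16, 1.14 and 2.62 FPKM in HFCF, and the diets overlapped.

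Hairpins of other cell types were scarce. The 7 rows of the endothelial list and the 3 rows of the red cell list were too low to test. The red cell hairpins ssc-mir-451 and ssc-mir-144 were above 0 in NC pig 1 alone, at 0.279 and 0.110 FPKM, and at 0 in HFCF pig 1, the pig with the high HBB. Of the 7 rows for skeletal and heart muscle 2 were tested, and limma called 0 by adjusted p and 0 at an unadjusted p under 0.05.

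**Figure D3:**
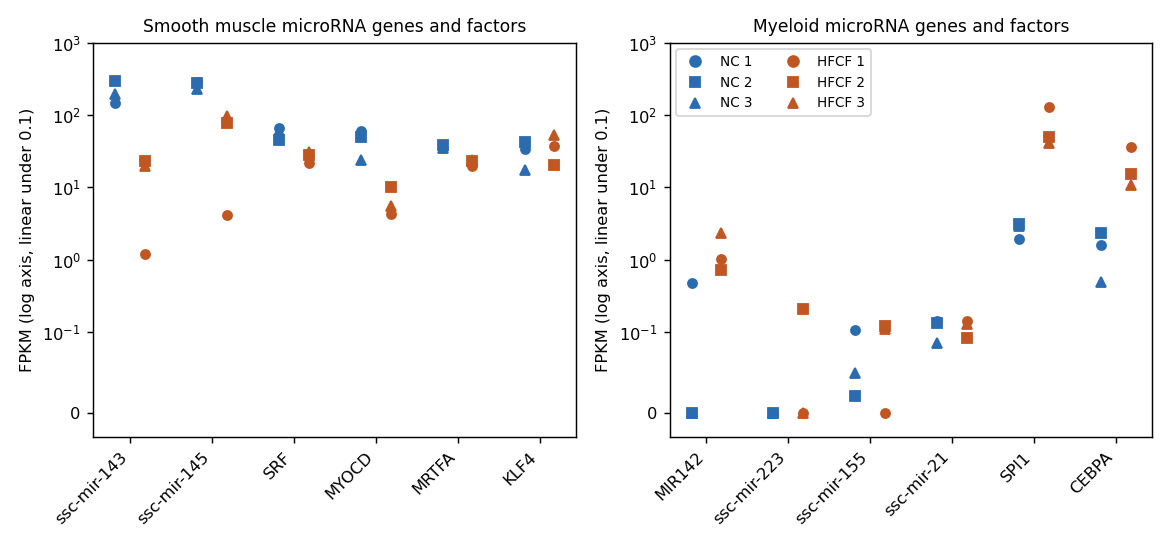
FPKM of each pig on a log axis, linear below 0.1, for smooth muscle microRNA genes with their transcription factors (left) and myeloid microRNA genes with theirs (right), NC in blue and HFCF in orange. MYOCD lies at 23.9 to 59.4 FPKM in NC and 4.27 to 10.1 FPKM in HFCF, and SPI1 lies at 1.95 to 3.13 FPKM in NC and 40.8 to 128 FPKM in HFCF, whereas ssc-mir-223, ssc-mir-155 and ssc-mir-21 stay near or below 0.2 FPKM.

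Of the 8 called genes other than ssc-mir-143, ssc-mir-365-2 and MIR140 alone kept their call under all alternatives. Both were outside these lists and had reached the limit of 1 FPKM in NC only, which by itself means a lower mean in HFCF. Their calls are therefore a description, however often the alternatives kept them. Levels of ssc-mir-365-2 fell from 6.20, 9.62 and 9.20 FPKM in NC to 0.537, 1.11 and 1.17 FPKM in HFCF. The SD on the log2 scale was 0.345 in NC and 0.557 in HFCF, and the diets did not overlap. The HFCF values were worth about 2.5, 5.4 and 5.7 fragments. The log2 difference of -3.06 ± 0.33 (limma adjusted p = 0.0018) was kept by 15 of 15 alternatives, with adjusted p from 0.0015 to 0.012. No other gene lay within 10 kb of it in the RefSeq table.

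MIR140, a hairpin inside WWP2 that is best known in cartilage, was at 4.39, 4.12 and 4.45 FPKM in NC. In HFCF it was at 0.0501, 0.264 and 1.04 FPKM, values worth from under 1 to about 5.1 fragments. This hairpin reached the limit of 1 FPKM in NC only, so a lower mean in HFCF was bound to follow and the call is a description. The log2 difference of -3.48 ± 0.67 (limma adjusted p = 0.011) was kept by all 15 alternatives. The NC pigs were nearly equal, with an SD of 0.057 on the log2 scale against 1.46 in HFCF. Its host gene WWP2, a ubiquitin ligase, was at 66.9, 45.8 and 59.0 FPKM in NC and 20.5, 42.2 and 11.4 FPKM in HFCF. Every HFCF pig was lower, but the log2 difference of -1.39 ± 0.44 missed the threshold (limma adjusted p = 0.053). Without HFCF pig 2 it was -1.88 and was called (0.016). The pig with the lowest MIR140, HFCF pig 1, was not the pig with the lowest WWP2, which was HFCF pig 3.

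The hairpin ssc-mir-218b lies inside SLIT3, which encodes a secreted guidance protein. It too had reached the limit in NC only, at 1.54, 2.54 and 2.18 FPKM, and was at 1.003, 0 and 0 FPKM in HFCF. Its call is a description for the same reason. The log2 difference was -3.27 ± 0.92 (limma adjusted p = 0.036), and 7 of 15 alternatives kept the call. Without NC pig 1, 2 or 3 the adjusted p was 0.095, 0.105 and 0.092, and without HFCF pig 2 or 3 it was 0.101 and 0.093. SLIT3 fell from 319, 247 and 330.2 FPKM to 98.9, 117 and 118 FPKM. Its log2 difference of -1.42 ± 0.17 (limma adjusted p = 0.0024) was kept by all 15 alternatives, and the HFCF pigs lay within 33.1% to 39.7% of the NC mean.

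ENSSSCG00000019359, a row with no symbol, fell from 5.75, 11.5 and 11.1 FPKM to 0, 1.45 and 1.58 FPKM. No HFCF pig reached the lowest NC pig. The log2 difference was -3.84 ± 1.05 (limma adjusted p = 0.033), and 10 of 15 alternatives kept the call. It was lost without NC pig 1 (0.083), 2 (0.098) or 3 (0.091), and without HFCF pig 1 it was -2.50 (0.0094).

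A single gene, ssc-mir-10390, was called higher, and it had the highest level of the 24. It was at 509.8, 665 and 425 FPKM in NC and 1568, 1355 and 786 FPKM in HFCF. The lowest HFCF pig lay above the highest NC pig. HFCF exceeded NC by 1.18 ± 0.31 on the log2 scale (limma adjusted p = 0.029). It was 1.16 without NC pig 1 (0.1), 1.03 without NC pig 3 (0.086), 0.98 without HFCF pig 1 (0.076) and 1.08 without HFCF pig 2 (0.089). Under each of the scaling alternatives it was not called either, with log2 differences of 0.69 to 0.92.

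The gene ssc-mir-1285 (ENSSSCG00000038379) shares its name with another row of the table. It was at 20.6, 13.7 and 4.09 FPKM in NC and 20.4, 99.6 and 40.1 FPKM in HFCF. HFCF pig 1 lay level with NC pig 1, and the log2 difference of 2.03 ± 0.73 was not called (limma adjusted p = 0.075). The row ENSSSCG00000033576 was at 0, 0.431 and 0 FPKM in NC and 0, 3.16 and 2.48 FPKM in HFCF. Its log2 difference of 2.44 ± 1.39 was not called (limma adjusted p = 0.23), and without HFCF pig 1 it was 4.05 and called (0.023).

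**Figure D4:**
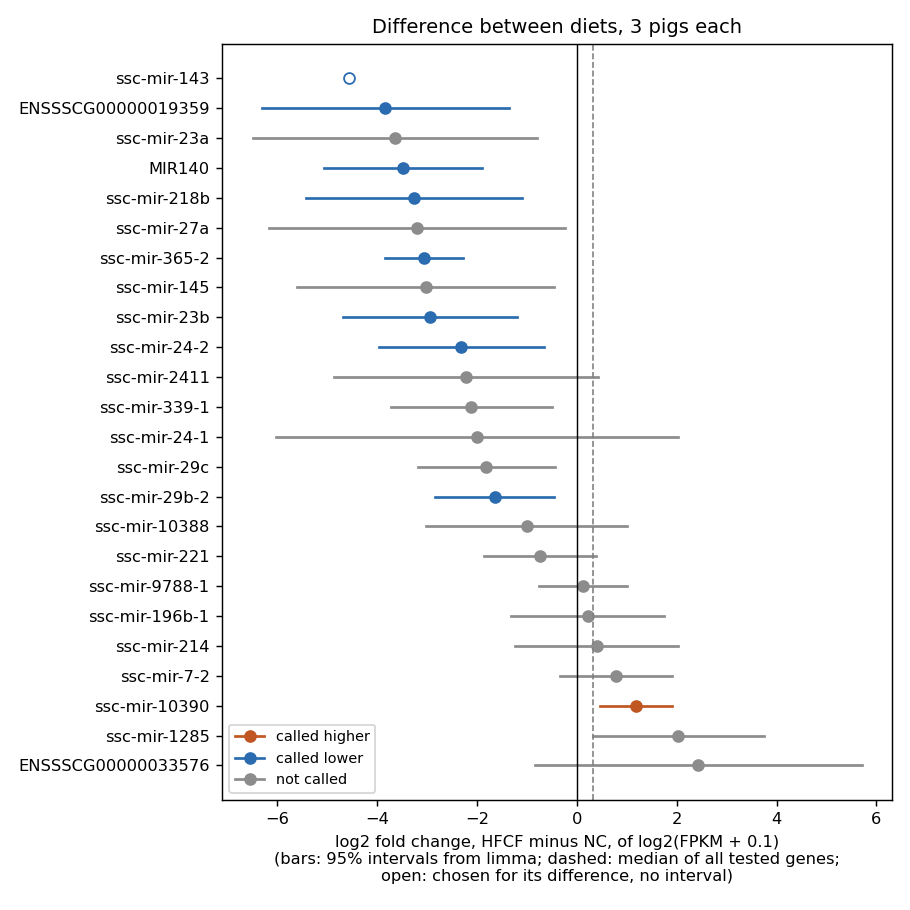
Log2 difference between HFCF and NC of log2(FPKM + 0.1) for the 24 microRNA genes, with 95% intervals from limma and n = 3 pigs per diet. Called genes are coloured, the dashed line marks the median of all tested genes at 0.32, and ssc-mir-143 is drawn open with no interval because it was chosen for its difference.

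The other genes were not called. Levels of ssc-mir-339-1, inside C3H7orf50, were 12.4, 7.10 and 7.08 FPKM in NC and 0.868, 1.18 and 6.26 FPKM in HFCF. The diets did not overlap, though HFCF pig 3 lay just below NC pigs 2 and 3, and the log2 difference was -2.12 ± 0.68 (limma adjusted p = 0.056). Without HFCF pig 3 it was -2.95 and called (0.0058). Levels of ssc-mir-2411, inside UBAP2L, were 1.14, 4.13 and 4.68 FPKM in NC and 1.67, 0 and 1.31 FPKM in HFCF, a log2 difference of -2.22 ± 1.12 (limma adjusted p = 0.18). The host gene UBAP2L, which encodes an RNA-binding protein of stress granules, fell from 27.5, 26.5 and 29.9 FPKM to 16.3, 15.0 and 13.4 FPKM. Its log2 difference of -0.91 ± 0.14 (limma adjusted p = 0.0053) was kept by all 15 alternatives.

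Levels of ssc-mir-7-2, inside HNRNPK, were 1.21, 3.06 and 2.96 FPKM in NC and 3.36, 6.98 and 2.54 FPKM in HFCF. Levels of ssc-mir-196b-1, from a family that lies among HOX genes, were 5.08, 1.76 and 3.24 FPKM in NC and 1.29, 4.93 and 7.11 FPKM in HFCF. In both genes the pigs of the diets were interleaved, and the log2 differences were 0.78 ± 0.48 (limma adjusted p = 0.25) and 0.22 ± 0.65 (0.83). Levels of ssc-mir-9788-1 (ENSSSCG00000035286, a name shared with another row) were 3.22, 1.75 and 1.33 FPKM in NC and 1.86, 1.75 and 3.04 FPKM in HFCF. Levels of ssc-mir-10388 were 0.640, 1.87 and 1.31 FPKM in NC and 1.21, 0.0562 and 1.14 FPKM in HFCF. Neither separated the diets, with log2 differences of 0.12 ± 0.38 (limma adjusted p = 0.83) and -1.01 ± 0.85 (0.41). The signs of ssc-mir-196b-1, ssc-mir-9788-1 and ssc-mir-214 flipped under scaling alternatives.

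The spread within a diet was wider in HFCF for most of the microRNA genes on the scale of log2(FPKM + 0.1). In FPKM itself the direction was mixed. There the SD was smaller in HFCF for ssc-mir-143 and ssc-mir-29c, among others, and larger for ssc-mir-145 and ssc-mir-10390, among others. On the log2 scale 19 of 24 genes had a larger SD among the HFCF pigs than among the NC pigs, and the median SD was 1.49 in HFCF and 0.589 in NC. An SD above 1 was seen in 17 genes in HFCF and in 4 in NC. The 24 include the 6 genes that reached 1 FPKM in NC only, whose HFCF values rest on few fragments. HFCF pig 1 held the lowest value of 12 of the 24 genes and was listed at 0 for 5. The part of these low values and of this pig in the wider spread was not tested. Among 10630 protein-coding genes with a mean of at least 1 FPKM the median SD was 0.256 in HFCF and 0.244 in NC, and 52.7% had the larger SD in HFCF. Among 117 small nucleolar RNA genes, which are also short, it was 0.546 in HFCF and 0.505 in NC. Among 13 small nuclear RNA genes, short as well, it was 0.76 in HFCF and 0.439 in NC, and 10 of the 13 had the larger SD in HFCF. The level and the spread of a gene come from the same values, so no test of the spread is given.

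The ranges within HFCF were widest on the log2 scale for 5 genes, of which 4 were listed at 0 in pig 1. In these 4 the 0 was read as log2 of 0.1 FPKM, so the size of their range depends on that added value. The range on the log2 scale was 7.13 for ssc-mir-24-1, 5.49 for ssc-mir-23a and 5.33 for ssc-mir-27a. It was 5.03 for ENSSSCG00000033576 and 4.49 for ssc-mir-145. In NC the same genes ranged over 1.21, 0.37, 0.90, 2.41 and 0.31. The smallest SD in HFCF belonged to ssc-mir-9788-1, at 0.42.

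**Figure D5:**
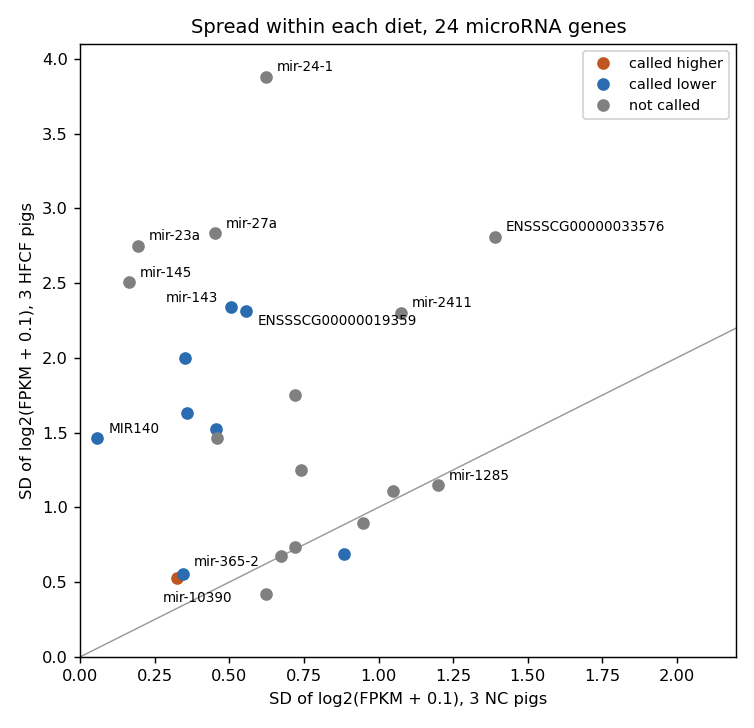
SD of log2(FPKM + 0.1) among the 3 HFCF pigs against that among the 3 NC pigs, 1 point per microRNA gene, with the line of equal SD. Of 24 points 19 lie above the line, with ssc-mir-24-1 highest at 3.88 and MIR140 farthest left at 0.057.

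The transcription factors that drive these hairpins were measured in the same libraries. Of 14 factors tested 4 fell, 3 rose and 7 were not called, where 6.16% of all tested genes fell and 22.8% rose. Myocardin (MYOCD), the coactivator of smooth muscle genes, fell from 59.4, 50.5 and 23.9 FPKM to 4.27, 10.1 and 5.52 FPKM, a log2 difference of -2.72 ± 0.43 (limma adjusted p = 0.0054). Its partner SRF fell from 65.8, 44.5 and 59.3 FPKM to 21.9, 28.5 and 30.5 FPKM, a difference of -1.06 ± 0.20 (0.010). MRTFA, a related coactivator, fell from 34.7, 38.2 and 35.1 FPKM to 19.7, 23.1 and 23.97 FPKM, a difference of -0.69 ± 0.14 (0.012). None of the 3 overlapped between diets, and all 15 alternatives kept each call. KLF4, a repressor of contractile genes and a target of miR-145, was at 34.2, 42.4 and 17.6 FPKM in NC and 36.9, 20.7 and 52.9 FPKM in HFCF. It was not called, with a log2 difference of 0.22 ± 0.43 (limma adjusted p = 0.73).

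The 3 factors that rose have roles in myeloid cells, though CEBPB was already at 40.9, 30.2 and 21.0 FPKM in NC. SPI1, the PU.1 factor that drives miR-223, rose from 1.95, 3.13 and 2.95 FPKM to 128, 50.5 and 40.8 FPKM, a log2 difference of 4.56 ± 0.43 (limma adjusted p = 0.0012). CEBPA rose from 1.63, 2.34 and 0.489 FPKM to 36.7, 15.6 and 10.8 FPKM, a difference of 3.77 ± 0.62 (0.0065). CEBPB rose by 1.67 ± 0.28 (0.0064), and JUNB, an immediate early factor, fell by 0.86 on the log2 scale (0.037). SPI1, CEBPA and CEBPB kept their calls under all 15 alternatives and JUNB under 7, of the single pigs only without HFCF pig 3.

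Of 26 tested genes that make and use microRNAs 4 rose, 2 fell and 20 were not called, where 22.8% of all tested genes rose and 6.16% fell. The median log2 difference was 0.07. The nuclear and cytoplasmic processing genes DROSHA (0.20 ± 0.30), DGCR8 (-0.11 ± 0.17), XPO5 (-0.10 ± 0.16) and DICER1 (0.36 ± 0.17) were not called, at limma adjusted p of 0.65, 0.66, 0.67 and 0.16. AGO2, the Argonaute that cuts its target, fell from 4.23, 4.08 and 3.78 FPKM to 2.23, 2.13 and 1.96 FPKM. AGO2 differed by -0.91 ± 0.18 on the log2 scale (limma adjusted p = 0.012), and all 15 alternatives kept the call. NCBP1, a cap-binding protein, fell by 1.11 on the log2 scale (0.019), and without HFCF pig 1 it missed the threshold (0.055).

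The 4 that rose were TUT7, SRRT, TARBP2 and MOV10. TUT7, which adds uridines to hairpins, rose from 0.891, 1.19 and 0.928 FPKM to 3.26, 2.09 and 2.44 FPKM, a log2 difference of 1.28 ± 0.26 (limma adjusted p = 0.013), and 14 of 15 alternatives kept the call. SRRT, a cofactor of nuclear processing, rose by 0.61 ± 0.12 (0.013), and TARBP2, a partner of DICER1, by 0.79 ± 0.19 (0.020). MOV10, a helicase of the silencing complex, rose by 1.28 ± 0.35 (0.035). SRRT was kept by 12, TARBP2 by 7 and MOV10 by 5 of the 15 alternatives. Without single pigs TARBP2 lost its call for NC pig 1 (0.058), NC pig 2 (0.067), HFCF pig 2 (0.071) or HFCF pig 3 (0.060). MOV10 lost it for NC pig 1 (0.104), 2 (0.081) or 3 (0.092) or HFCF pig 3 (0.063).

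Protein-coding genes that hold a microRNA in mammals moved in both directions. Of 50 host genes tested 11 rose, 6 fell and 33 were not called, with a median log2 difference of 0.03, so that 17 were called where 28.9% of all tested genes were called. SREBF2, which encodes a transcription factor and holds miR-33a, fell from 38.6, 33.2 and 25.7 FPKM to 8.30, 5.46 and 7.48 FPKM. Its log2 difference was -2.18 ± 0.22 (limma adjusted p = 0.0015). SLIT3 is described above. Among those that rose, DNM1 rose by 2.02 ± 0.52 (0.029), PANK3, an enzyme of coenzyme A synthesis, by 2.01 ± 0.28 (0.0037), ARRB1, a beta-arrestin, by 1.86 ± 0.34 (0.0095) and ZRANB2, a splicing factor, by 1.80 ± 0.20 (0.0018). SMC4, a condensin subunit that holds miR-15b and miR-16, rose by 1.69 ± 0.34 (0.012). SREBF2, PANK3, ARRB1 and ZRANB2 kept their calls under 15 of 15 alternatives, SMC4 under 14 and DNM1 under 9. Without single pigs the count of called host genes was 7 (NC pig 1), 10 (NC pig 2), 12 (NC pig 3), 13 (HFCF pig 1), 11 (HFCF pig 2) and 10 (HFCF pig 3).

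Known targets of miR-143 or miR-145 were counted from a list of 18 genes, of which 16 were tested. In HFCF 6 rose, 0 fell and 10 were not called, with a median log2 difference of 0.47 against 0.32 over all tested genes. At an unadjusted p under 0.05 limma put 8 higher and 0 lower. Of all tested genes 22.8% rose. ABCA1, the cholesterol exporter, rose from 0.872, 0.718 and 0.598 FPKM to 13.3, 11.0 and 10.5 FPKM, a log2 difference of 3.82 ± 0.21 (limma adjusted p = 0.00026). VCAN, the matrix proteoglycan versican, rose by 2.21 ± 0.26 (0.0022), HK2, a hexokinase, by 1.91 ± 0.54 (0.037) and ADD3, an adducin, by 1.37 ± 0.33 (0.022). CD40 rose by 1.17 ± 0.15 (0.0030) and TGFBR2, a receptor for TGF-beta, by 0.81 ± 0.21 (0.027). ABCA1, VCAN and CD40 kept their calls under all 15 alternatives, ADD3 under 8, TGFBR2 under 7 and HK2 under 5. The macrophage markers rose in the same libraries, and their part in these differences was not tested. Of 16 tested targets of myeloid microRNAs 5 rose, among them NLRP3, an inflammasome sensor, by 3.34 ± 0.30 (0.0011), 1 fell, IGF1R, by 1.14 on the log2 scale (0.012), and 10 were not called, with the same shares of all tested genes as background.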

How the data were processed

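Messenger RNA libraries, 1 for each of 6 pigs, were sequenced in paired ends. Per the methods and labels, the authors trimmed reads with cutadapt 1.9, checked them with FastQC, mapped them to the pig genome (HISAT2) and obtained transcripts and levels with StringTie. They deposited FPKM values for 30477 genes, which were used as deposited, with 0.0001 FPKM read as 0. Read counts were not used here. The methods name an older pig build than the RefSeq table (Sscrofa11.1), so no coordinates are given, and that table served only for names and neighbours within 10 kb (18 of 24 genes matched, and strand was not used).

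Values were analysed as log2(FPKM + 0.1) with limma 3.58.1 in R 4.3.3, fitting diet alone, with moderated two-sided tests (eBayes, variance trend) over 15384 genes with a mean of at least 0.1 FPKM, with Benjamini-Hochberg adjustment over all of them. Errors after ± are standard errors of limma. A fold change on this scale understates changes of low genes. The authors' own thresholds, a ratio of means above 2 or below 0.5 with an unadjusted p under 0.05, were an alternative, applied with the p of limma. The others changed the pseudocount (1 or 0.01), the filter (none, or a mean of at least 1 FPKM), the scaling (by median ratios, by quantiles, to TPM) or the variance trend (left out), added a replicate block, or dropped 1 library at a time.

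Genes were named when they were on the smooth muscle or myeloid list, among the 5 highest or the 5 widest in range, or called, and up to 8 were named from each other list. All 24 genes are nevertheless given. The members and lists were chosen with earlier results of these data known. Each library came from 1 pig, so the spread covers pigs and technical steps together.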

Additional observations from a re-analysis of the deposited data

How the results depend on the processing

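Of 644 results for single genes under the 15 alternatives, 520 kept their direction and their side of the threshold, 81 lost and 21 gained the threshold, and 22 changed sign. The calls of ssc-mir-365-2, MIR140, AGO2, SRF, MYOCD, MRTFA, SLIT3, UBAP2L and ZSWIM4 held under all 15 of these alternatives. By the study's thresholds AGO2, MRTFA and UBAP2L were not called, with ratios of means of 0.52, 0.62 and 0.53. The 1 microRNA gene called higher by limma became 0 with no filter, 0 with median-ratio scaling, 0 with quantile normalization and 0 with rescaling to TPM, where 2, 1, 2 and 2 had an unadjusted p under 0.05 and a higher level, and 2 by the study's thresholds. Leaving out 1 library gave 0 to 1. The 8 called lower, counted with ssc-mir-143, became 4 with no filter and 13 by the study's thresholds, and 2 to 9 when 1 library was left out. The 8 and the 13 both hold ssc-mir-365-2, MIR140 and ssc-mir-218b, which reached 1 FPKM in NC only, so their calls are a description. The study's thresholds call 4.82% of all tested genes lower and 20.7% higher. The cause was not tested, except that leaving out a library leaves fewer samples. Scaling by median ratios moved the median log2 difference of all tested genes from 0.32 to -0.0031, and 19 of the 24 genes then lay below 0 instead of 17.

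Replicate numbers did not pair the pigs. Deviations of same-numbered pigs from their diet means correlated at 0.021, -0.079 and -0.072, and no pig correlated best with its own number. With the replicate block 9 host genes instead of 17 and 3 pathway genes instead of 6 were called. Without single libraries these were 7 to 13 and 4 to 5, and by the study's thresholds 3 pathway genes were called.

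Signs changed only in genes not called with all 6 libraries. With 1 library left out, ssc-mir-24-1 ranged from -3.34 to 0.23 (without HFCF pig 1), ssc-mir-196b-1 from -0.27 to 0.92, ssc-mir-9788-1 from -0.14 to 0.47, ssc-mir-214 from -0.20 to 0.92 and ssc-mir-10388 from -1.53 to 0.0020 (without HFCF pig 2). Under median-ratio scaling, quantile normalization and rescaling to TPM ssc-mir-196b-1 was at -0.13, -0.29 and -0.036, and it was also below 0 without NC pig 2, HFCF pig 2 or HFCF pig 3. Under the same 3 scalings ssc-mir-9788-1 was at -0.22, -0.48 and -0.12, and it was below 0 without NC pig 3 or HFCF pig 3. Under quantile normalization ssc-mir-214 was at -0.20, and it was below 0 without NC pig 1 or HFCF pig 2. AOPEP was at -0.32, -0.24 and -0.23 under those 3 scalings and ranged from -0.30 to 0.67 (without HFCF pig 1, called higher) with 1 library left out. Depth limits rows under 1 FPKM, which rest on few fragments.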
